A study of Lobaria pulmonaria with 11 samples.

Results

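The set described here holds 198 transcripts of the lichen fungus that were lower in every library after 7 and 11 days of daily ultraviolet-B (UV-B) lamp exposure than in any library of day 0 or day 2, apart from 2 members with early libraries at 0. Most had no detected change at day 2, and 2 members were called lower at day 2 than at day 0. They are 198 of 12089 tested fungal transcripts (1.64%), out of 15607 in the deposited table. The lichen is Lobaria pulmonaria, collected in woodland, dried, frozen, rewetted and kept moist at 15 °C. Of the 11 libraries, 3 came from day 0 (unirradiated, 0 kJ/m2), 3 from day 2 (28.8 kJ/m2), 2 from day 7 (100.8 kJ/m2) and 3 from day 11 (158.4 kJ/m2). The lamps gave 3 W/m2 for 80 min per day, or 14.4 kJ/m2 daily. Every library is from whole thallus with all partners (the fungus, the green alga Symbiochloris reticulata and the cyanobacterium Nostoc). Day 0 is the only group without UV-B, and dose and days rise together. UV-B dose and time in the chamber therefore cannot be told apart.

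The members were chosen by their own levels in all 11 libraries. Levels are in CPM, a transcript's counts relative to the total of its library after trimmed mean of M-values (TMM) scaling. The 6 libraries of day 0 and day 2 are called early here, and the 5 libraries of day 7 and day 11 late. A member's highest late CPM is at most its lowest early CPM divided by 1.5, and its mean early CPM is at least 3. The 100 most abundant transcripts of day 0 were left out. So were transcripts whose highest CPM in the 8 irradiated libraries is at most their lowest day 0 CPM divided by 1.5. The late fall itself is thus what defined the set, and its size is given as a description only.

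A lichen fungus lives on sugars that its algal partner fixes, and it builds the upper cortex that shades the alga. UV-B damages DNA and proteins, and Lobaria pulmonaria is known to darken its cortex with melanin under UV-B. A transcript level reflects both synthesis and decay of the RNA. In whole thalli, fewer cells of a kind and less RNA per cell cannot be told apart. The files give transcripts as bare numbers, without names or functions, so no role can be given to any member.

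The late criterion was met by 267 transcripts. Of these, 27 were left out as already low in every irradiated library and 17 as among the top 100, with 2 under both headings. A further 27 had an early mean below 3 CPM, which leaves 198. The narrowest gaps inside the set, as lowest early over highest late CPM, were 1.510, 1.513 and 1.520. The widest gaps just outside were 1.499, 1.498 and 1.494. The gap lay between 1.5 and 1.6 in 26 members and between 1.4 and 1.5 in 47 transcripts that met the other criteria. Transcripts thus lay close together on both sides of the threshold. The lowest early means inside were 3.25, 3.62 and 3.81 CPM, and the highest just outside 2.97, 2.91 and 2.91 CPM. At the abundance limit, the day 0 means of ranks 100 and 101 were 667 and 664 CPM.

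Together the members held 2.06% to 2.34% of all fungal counts in the day 0 libraries and 1.4% to 2.20% at day 2. They held 0.394% and 0.452% at day 7, and 0.286% to 0.454% at day 11. As summed CPM this was 18091 ± 1918 (SD) in the 3 day 0 libraries and 18988 ± 5408 in the 3 of day 2. It was 4326 ± 227 in the 2 day 7 libraries and 3886 ± 824 in the 3 of day 11. Every late sum, from 3194 to 4797, lay below every early sum, from 15569 to 25223, as the choice of members requires. The late mean of the sums was 21.9% of the early mean. The 10 most abundant members made up 31.1% of the summed early level.

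**Figure D1:**
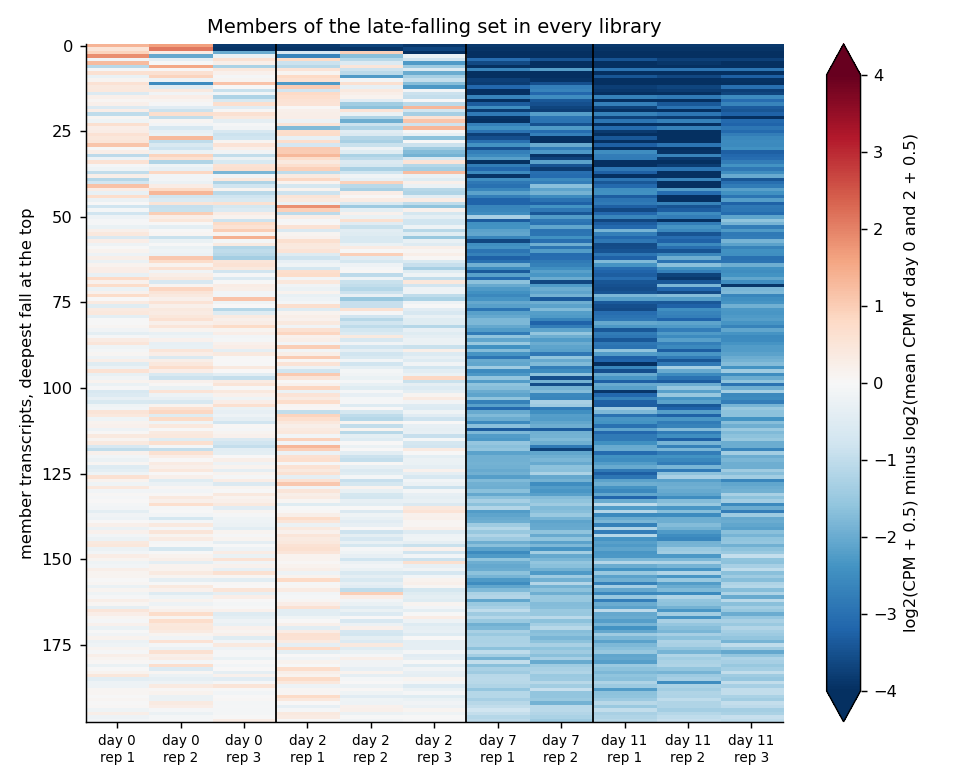
Levels of the 198 members (rows, deepest fall at the top) in the 11 libraries (columns, by day and replicate), as log2(CPM + 0.5) minus the log2 of the member's mean early CPM + 0.5. Colours beyond -4 and 4 are drawn at the end of the scale. The 6 libraries of day 0 and day 2 are near 0 in most rows, and the 5 libraries of day 7 and day 11 are blue throughout.

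The fall was deep in most members. The late mean was a median 19.9% of the early mean, and every member's late mean was at most 1/2 of its early mean. It was at most 1/4 in 136 members, at most 1/8 in 50 and at most 1/16 in 19. In fold terms the early mean was a median 5.02 times the late mean, with quartiles of 3.78 and 7.97. The smallest fall was 2.15-fold. The gap between the closest libraries was narrower, with a median of 1.94 and a maximum of 9.57. It was at least 2 in 87 members, at least 3 in 29 and at least 5 in 11.

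Fall and abundance were only loosely tied within the set. Early means ran from 3.25 to 784 CPM, with a median of 41.7 CPM, against 26.3 CPM over all tested transcripts. The latter include transcripts under the minimum of 3 CPM, so the higher median of the members is partly fixed by the rule. The 42 members from 3 to 10 CPM had a median fold of 5.67, and the 66 from 10 to 50 CPM one of 5.55. The 34 members from 50 to 100 CPM had a median fold of 4.87, and the 56 members of 100 CPM or more one of 4.57. The share of members in these 4 classes was 21.2%, 33.3%, 17.2% and 28.3%. It was 19.5%, 37.6%, 18.9% and 24.0% among the 10046 tested transcripts with an early mean of 3 CPM or more. Members were thus spread over the abundance range much as those transcripts were.

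**Figure D2:**
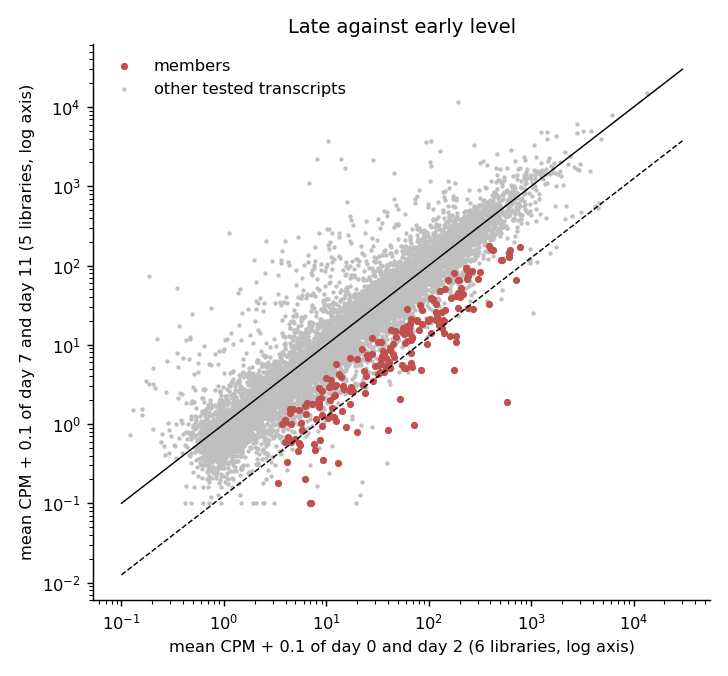
Mean late CPM (day 7 and day 11, vertical) against mean early CPM (day 0 and day 2, horizontal), both + 0.1 on log axes, for the 198 members (red) and the other tested transcripts (grey). The solid line marks equal levels and the dashed line a late level of 1/8 of the early level, with 50 members on or below that share.

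Late levels did not usually reach 0. The median late mean was 6.70 CPM, and 9 members still had late means above 100 CPM, the highest at 176 CPM. At the other end, 28 members had a late mean below 1 CPM. Those 28 had early means from 3.25 to 71.0 CPM with a median of 5.91 CPM. At least 1 late library had no count in 9 members, and all 5 had none in 2. These 2 met the criterion as 0 at most 0, since they also had 0 counts in some early libraries. One had 10.2 and 31.8 CPM in day 0 replicates 1 and 2, 0.0873 CPM in day 2 replicate 3 and 0 elsewhere. The other had 18.3 and 22.4 CPM in day 0 replicates 1 and 2, 0.0578 CPM in day 2 replicate 2 and 0 elsewhere. Both were thus present in day 0 replicates 1 and 2, at 0 in day 0 replicate 3, and nearly absent from day 2 on. No fold is given for them. The median fold over all 198 stayed at 5.02 with these 2 set to a floor of 3 counts over the late libraries.

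Transcript 545930 had the widest gap among the 90 members with an early mean of 50 CPM or more and every early library above 0. Its levels were 1070, 732 and 144 CPM at day 0 and 359, 1125 and 32.8 CPM at day 2. They were 1.33 and 4.46 CPM at day 7, and 1.6, 0.668 and 0.795 CPM at day 11. The late libraries held 5 to 43 counts each, against 376 to 19457 in the early ones. The mean late level of 1.77 CPM was 0.307% of the mean early level of 577 CPM. Its early libraries differed 34.2-fold among themselves, the largest such spread among the 196 members with every early library above 0. The lowest early library nevertheless lay 7.36 times above the highest late one.

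Within the early and the late days no change of transcript 545930 was detected. Its mean was 505 ± 560 CPM at day 2 and 649 ± 469 CPM at day 0 (SD, n = 3 each), a log2 fold change of -0.36 (SE 1.04, edgeR adjusted p = 0.852). Its sign turned without day 0 replicate 1 (0.17) or day 2 replicate 3 (0.19). For day 11 the mean of 1.02 ± 0.507 CPM (n = 3) stood against 2.89 ± 2.21 CPM for day 7 (n = 2), a log2 fold change of -1.47 (SE 1.49, edgeR adjusted p = 0.998). The error leaves room for changes of several fold in either comparison.

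Transcript 1271319 was the most abundant member. It had 839, 560 and 524 CPM at day 0, 1481, 554 and 744 CPM at day 2, 158 and 229 CPM at day 7, and 109, 81.4 and 272 CPM at day 11. Its late mean of 170 CPM was 21.7% of its early mean of 784 CPM. Day 2 replicate 1 was the highest of the early libraries, and day 11 replicate 3 the highest of the late ones. At day 2 its mean was 926 ± 490 CPM, against 641 ± 173 CPM at day 0 (SD, n = 3 each), a log2 fold change of 0.53 (SE 0.49, edgeR adjusted p = 0.5). At day 11 it was 154 ± 103 CPM (n = 3), against 194 ± 50.3 CPM at day 7 (n = 2), a log2 fold change of -0.33 (SE 0.54, edgeR adjusted p = 0.998). The spread between replicates was as large as these differences.

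**Figure D3:**
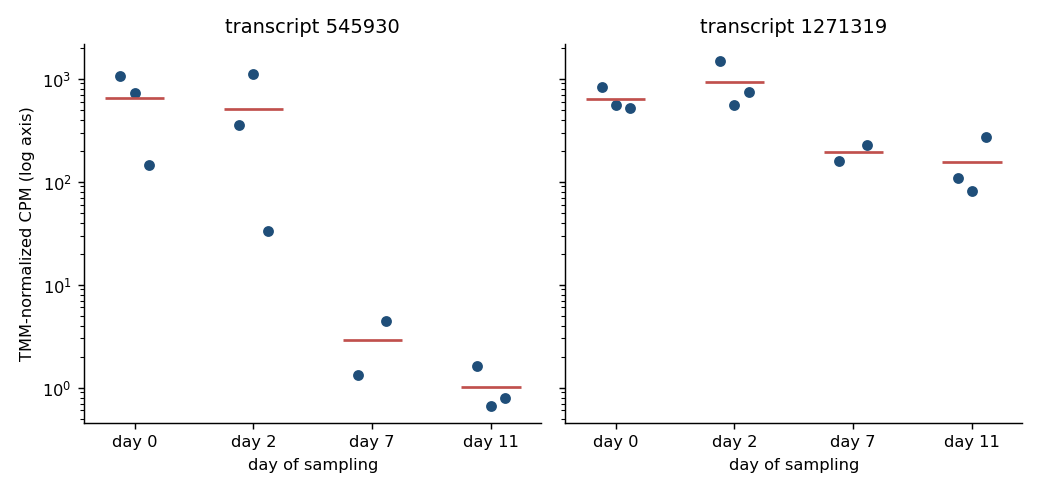
Levels of transcripts 545930 and 1271319 in each of the 11 libraries (points) by day, in CPM on a log axis, with the mean of each day as a line. The late points of 545930 lie between 0.668 and 4.46 CPM and its early points between 32.8 and 1125 CPM, while 1271319 lies between 81.4 and 272 CPM late and 524 and 1481 CPM early.

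The widest gap of all belonged to a scarcer member without a detectable day 2 response. It had 21.1, 16.9 and 21.3 CPM at day 0, 30.5, 18.1 and 9.78 CPM at day 2, 1.02 and 0.830 CPM at day 7, and 0.1, 0.668 and 0.795 CPM at day 11. Its day 2 mean of 19.5 ± 10.4 CPM stood beside 19.8 ± 2.45 CPM at day 0 (SD, n = 3 each), with a log2 fold change of -0.02 (SE 0.49, edgeR adjusted p = 0.979). The 10 members with the widest gaps had late means of at most 12.7 CPM and early means from 6.10 to 577 CPM. Their falls were at least 11.9-fold. In 4 of these 10 the early libraries themselves differed at least 5-fold.

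The 10 most abundant members differed in how far they fell. Their late means were 1.77 to 170 CPM and their early means at least 410 CPM, with folds from 2 to 5 in 8 of the 10. The second most abundant had 707, 403 and 826 CPM at day 0 and 1478, 627 and 267 CPM at day 2. It had 63.9 and 103 CPM at day 7 and 13.6, 18.2 and 132 CPM at day 11. Its day 11 replicate 3 lay above both day 7 libraries while the other day 11 libraries lay below both. The third most abundant was more even, with 536, 383 and 550 CPM at day 0, 1021, 509 and 716 CPM at day 2, 151 and 169 CPM at day 7, and 157, 161 and 151 CPM at day 11.

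The steadiest member before the fall had early libraries within 1.21-fold of each other. It had 147, 134 and 146 CPM at day 0, 158, 131 and 143 CPM at day 2, 71.5 and 35.1 CPM at day 7, and 30.8, 59.8 and 56.2 CPM at day 11. Its late mean was 35.3% of its early mean. Early libraries lay within 2-fold of each other in 50 members and differed at least 5-fold in 25 of the 196 with every early library above 0. Their median spread was 2.63-fold, against 2.14-fold over all tested transcripts of 3 CPM or more. Among the 48 of these members that fell at least 8-fold the median early spread was 4.59-fold, and among the other 148 it was 2.36-fold. The gap criterion admits a wide early spread only where the fall is deep, so this tie is partly fixed by the rule.

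The comparisons of late with early days are those the rule used, and their calls are listed only as a description. A transcript was called at an edgeR adjusted p under 0.05 over all tested transcripts. Called lower at day 7 than at day 0 were 172 members, where 7.86% of all tested transcripts were called lower. Leaving out day 7 replicate 1 gave 72, and leaving out its replicate 2 gave 44. At day 11 against day 0, 196 members were called lower, where 13.8% of all were. At day 7 against day 2 there were 112, where 3.33% of all were called lower. That count was 53 without day 2 replicate 1. Leaving out day 7 replicate 1 gave 29 and leaving out replicate 2 gave 11. At day 11 against day 2 there were 188, where 6.6% of all were, and 107 without day 11 replicate 1. The share of all tested transcripts was not computed for the fits without a library. The median log2 fold change of the members was -2.26, -2.53, -2.07 and -2.29 in turn, while over all tested transcripts it was -0.02, -0.02, -0.01 and -0.01. Comparisons that use the same day share its libraries.

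Between day 2 and day 0 the rule set no order, except that it dropped transcripts already low in every irradiated library. At day 2 the members stood at a median 89.7% of their day 0 level. Their median log2 fold change was -0.16, with quartiles of -0.48 and 0.19, against -0.03 over all tested transcripts. It was -0.45 without day 2 replicate 1, with -0.03 over all, and -0.10 and -0.08 without day 2 replicates 2 and 3. Day 2 means were above day 0 means in 80 members and below in 118. By edgeR log2 fold change, 118 members and 51.7% of all tested transcripts lay below 0. No member was called higher at day 2, where 8.59% of all tested transcripts were, and 2 were called lower, where 4.47% were. At an unadjusted p under 0.05 there were 7 higher members, where 16.7% of all tested were, and 19 lower, where 13.8% were. DESeq2 called 3 members higher, where 13.3% of all were, and 9 lower, where 8.6% were. All 3 day 2 libraries were above all 3 day 0 libraries in 10 members (5.05%), against 18.7% of all tested transcripts, and below in 21 (10.6%), against 17.9%. With all 11 libraries, each of these counts, taken as a share of the 198, was below the share among all tested transcripts. Without day 2 replicate 1 this did not hold for the lower calls, with 12 members (6.06%), against 2.85% of all tested transcripts. The rule bars the deepest early falls, so the counts of lower members are partly fixed by it. It also bars transcripts that rose at day 2 and did not later fall below day 0. The counts of higher members are thus partly fixed by it too.

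These day 2 counts were sensitive to scaling. When each library was scaled by its total instead, all tested transcripts had a median log2 fold change of -0.45 at day 2 and the members -0.58. Called lower were then 25 members (12.6%), against 18.3% of all tested transcripts. Relative to all transcripts the members' median was then -0.13 and with TMM also -0.13. In place of 2, edgeR called 1 or 0 members lower without any 1 of 7 single libraries. Those 7 were day 0 replicates 1 and 2, day 2 replicates 2 and 3, and all 3 replicates of day 11. In those fits 1.05% to 4.21% of all tested transcripts were called lower, against 4.47% with all 11 libraries. In a fit to days 0 and 2 alone edgeR called 0 members lower, where 3.00% of all were. Members called higher were 2 without day 2 replicate 2 or day 11 replicate 2, where 7.10% and 8.37% of all were called higher. Without day 7 replicate 1 or 2, 1 member was called higher, where 7.96% and 7.93% of all were.

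The 2 members called lower at day 2 fell in steps. One had 116, 88.5 and 67.5 CPM at day 2, against 139, 194 and 208 CPM at day 0. Its day 2 mean of 90.8 ± 24.5 CPM compared with 180 ± 37.0 CPM (SD, n = 3 each), a log2 fold change of -0.99 (SE 0.24, edgeR adjusted p = 0.0255). It then had 14.3 and 14.0 CPM at day 7 and 18.7, 21 and 14.0 CPM at day 11. The other had 26.9, 14.4 and 13.2 CPM at day 2, against 31.1, 41.7 and 51.0 CPM at day 0, a log2 fold change of -1.19 (SE 0.33, edgeR adjusted p = 0.0449). It had 6.75 and 3.94 CPM at day 7 and 5.71, 5.75 and 4.27 CPM at day 11. In both, no day 2 library overlapped a day 0 library.

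By the ratio of day 2 to day 0 means, the members fell into 3 groups. The rule shapes the sizes of these groups as it does the day 2 counts above. In 138 (69.7%) the ratio lay between 1/1.5 and 1.5, as in 63.7% of tested transcripts of 3 CPM or more. These 138 had a median early mean of 55.0 CPM, and medians of 0.239 of the day 0 level at day 7 and 0.196 at day 11. In 44 members (22.2%) the day 2 mean was at most 1/1.5 of day 0, against 17.6% of those transcripts. Their median early mean was 17.1 CPM, and their medians were 0.549 of the day 0 level at day 2, 0.113 at day 7 and 0.105 at day 11. The ratio chose these 44, and they include both members with early libraries at 0 and both that edgeR called lower at day 2. In 16 members (8.08%) the day 2 mean was at least 1.5 times day 0, against 18.7% of those transcripts. Their median early mean was 111 CPM, and their medians were 1.75 times the day 0 level at day 2, 0.278 of it at day 7 and 0.262 of it at day 11.

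None of those 16 was called higher at day 2. The largest ratio, 2.54, rested on 1 library, with 103, 10.0 and 8.99 CPM at day 2 against 16.1, 14.6 and 17.3 CPM at day 0. The second largest, 2.40, was carried by all 3 libraries. That member had 587, 309 and 386 CPM at day 2, against 154, 156 and 225 CPM at day 0, a log2 fold change of 1.26 (SE 0.48, edgeR adjusted p = 0.108). It then had 100 and 23.0 CPM at day 7 and 76.8, 85.1 and 48.1 CPM at day 11. The third, at 2.21, had 104, 179 and 110 CPM at day 2 against 55.6, 81.0 and 41.3 CPM at day 0 (log2 fold change 1.15, SE 0.35, edgeR adjusted p = 0.0585). It had 12.8 and 13.8 CPM at day 7 and 8.72, 4.54 and 11.2 CPM at day 11.

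**Figure D4:**
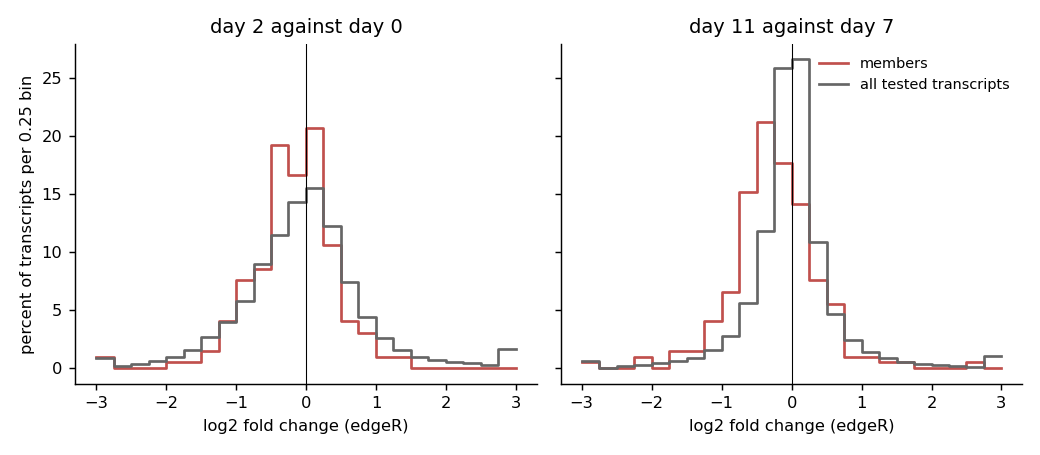
Percent of transcripts per bin of 0.25 in log2 fold change, for the 198 members (red) and all tested transcripts (grey), for day 2 against day 0 (left) and day 11 against day 7 (right). Values beyond -3 or 3 are drawn in the outermost bins. The members' median is -0.16 on the left and -0.26 on the right, and the medians of all tested transcripts are -0.03 and -0.01.

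From day 7 to day 11 the members' levels stayed low, as the rule requires, and edgeR called no further change. The rule set no order between these days. The median log2 fold change of the members was -0.26, with quartiles of -0.61 and 0.12, against -0.01 over all tested transcripts. The day 11 mean was below the day 7 mean in 137 members and above in 59. By edgeR log2 fold change, 137 members and 50.7% of all tested transcripts lay below 0. The day 11 mean was at most 1/2 of day 7 in 18 members and at least 2 times in 5. The share over all tested transcripts was not computed for those last counts. edgeR called 0 members lower and 0 higher, where 0% of all tested transcripts were called. At an unadjusted p under 0.05 it had 7 members lower, where 2.55% of all were, and 1 higher, where 2.6% were. DESeq2 called 1 member higher, where 0.38% of all were, and 0 lower, where 0.256% were. All 3 day 11 libraries lay below both day 7 libraries in 30 members (15.2%), against 10.3% of all tested transcripts, and above in 6 (3.03%), against 9.48%. The median of the members stayed below 0 under all alternatives tried, between -0.45 and -0.15. It was -0.45 without day 11 replicate 3, and -0.15 without day 11 replicate 1 or day 7 replicate 1. Scaling by totals moved the median of all tested transcripts to -0.12.

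The member with the smallest adjusted p between these days had 19.4, 25.3 and 30.2 CPM at day 11, against 8.08 and 7.99 CPM at day 7. It was singled out after its values were seen. Its day 11 mean was 25 ± 5.39 CPM (SD, n = 3) against 8.03 ± 0.0637 CPM at day 7 (n = 2), a log2 fold change of 1.64 (SE 0.26, edgeR adjusted p = 0.294). Both days lay far below its early libraries, at 74.6, 84.2 and 82.6 CPM at day 0 and 110, 92.4 and 66.9 CPM at day 2.

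The members also varied together between thalli of the same day. The rule set no order between these thalli, but it chose the members by their levels in these same libraries. How far that choice made them vary together was not tested. Day 2 replicate 1 was the highest of its day in 142 members (71.7%), against 38.3% of tested transcripts of 3 CPM or more. Day 11 replicate 3 was the highest of its day in 114 members (57.6%), against 37.1%. Both held in 87 members (43.9%), against 14.4%. Day 2 replicate 1 was at least 2 times both other libraries of its day in 34 members (17.2%), against 2.94% of those transcripts. The same held for day 11 replicate 3 in 36 members (18.2%), against 2.58%. These counts were chosen after the data had been seen, and transcripts of 1 library are not independent, so no test is given. The transcripts compared were chosen by early level, whereas the members had fallen by day 11. Their median levels were then 4.86, 4.81 and 9.39 CPM in replicates 1, 2 and 3. The day 11 shares thus compare unlike levels, and the part of low counts in them was not tested.

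**Figure D5:**
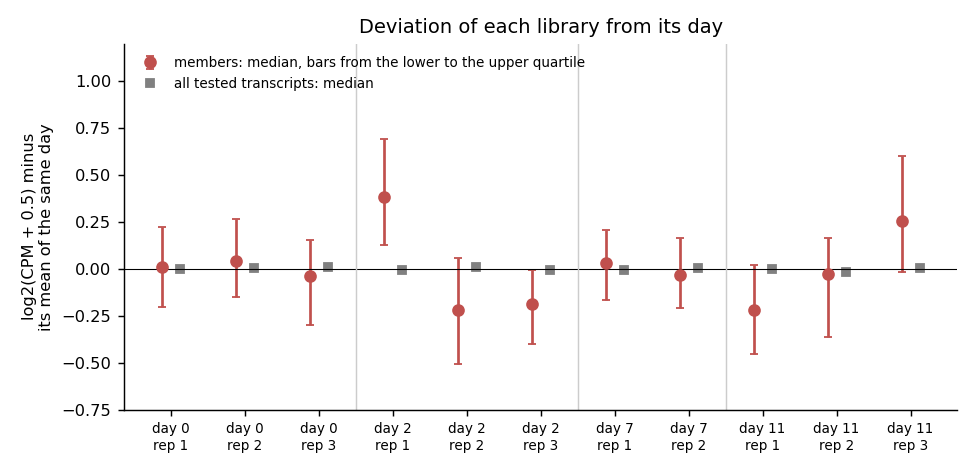
Deviation of each library from the mean of its day, as log2(CPM + 0.5), for the members (red, median with bars from the lower to the upper quartile) and all tested transcripts (grey, median). The members' median is 0.39 in day 2 replicate 1 and 0.25 in day 11 replicate 3, and between -0.22 and 0.04 in the other libraries, while that of all tested transcripts is within 0.02 of 0 in every library.

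As a median over members, day 2 replicate 1 lay 0.39 above its day's mean on the log2 scale, and day 2 replicates 2 and 3 lay at -0.22 and -0.19. In day 11 the deviations were -0.22, -0.02 and 0.25 for replicates 1, 2 and 3. Day 0 libraries deviated by 0.01, 0.04 and -0.04, and day 7 libraries by 0.03 and -0.03. After each day's mean was removed, the median Pearson correlation between pairs of members over the 11 libraries was 0.232, against 0.000286 between pairs of all tested transcripts of 3 CPM or more. Pairs share libraries and scaling, and the members were chosen by these levels, so these are descriptions. The median coefficient of variation of the members was 22.8% at day 0, 35.3% at day 2 and 39.0% at day 11, against 17.7%, 21.7% and 19.0% over those transcripts. By the rule the members had fallen by day 11, so the 39.0% and 19.0% do not compare transcripts of like level.

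Several libraries set the members' boundaries. The lowest of the 6 early libraries was day 2 replicate 2 in 75 members and replicate 3 in 61, and day 0 replicates 1, 2 and 3 in 8, 13 and 32. The highest of the 5 late libraries was day 7 replicate 1 in 63 members, day 11 replicate 3 in 55 and day 7 replicate 2 in 44. The TMM scaling factors were 1.16 to 1.27 at day 0, 0.871 to 0.982 at day 2, 0.947 and 1.01 at day 7, and 0.864 to 0.946 at day 11. Unmapped reads made up 10.9% to 14.0% of kept reads at day 0, 9.29% to 11.6% at day 2, and 10.5% and 10.6% at day 7. At day 11 they made up 14.7%, 16.3% and 11.7% in replicates 1, 2 and 3, with the lowest value in the replicate where members were highest. The part of unmapped reads in the result was not tested.

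The opposite late pattern was also present in the fungus, and few algal transcripts met the falling rule. The mirrored rule, with every late library at least 1.5 times every early one and a late mean of 3 CPM, was met by 149 fungal transcripts (1.23%). In the alga it was met by 42 of 9862 tested transcripts. In the photobiont table, whose counts were not used to choose the members, 3 transcripts (0.0304%) met the falling rule. Of these, 2 had early libraries at 0 and met it as 0 at most 0. The 1 with every early library above 0 had 5.99, 32.2 and 2.33 CPM at day 0, 10.2, 2.26 and 3.20 CPM at day 2, 0 and 1.46 CPM at day 7, and 0.778, 0 and 0.734 CPM at day 11. Algal libraries held 938418 to 2677845 counts, against 8680745 to 17626099 fungal counts, so that a level of 3 CPM was a few reads there. The algal count rose to 19 and 16 without day 7 replicates 1 and 2, to 8 without day 0 replicate 1 or day 2 replicate 3 and to 5 without day 11 replicate 3, and it fell to 1 without day 2 replicate 1. Leaving out a library in itself loosens the gap criterion. The difference between the partners was not tested.

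Transcripts left out by the rule show where the set borders on its neighbours. The 27 that met the late criterion but were already low in every irradiated library had a median day 2 level of 0.290 of day 0 and a median late level of 0.0503 of day 0. The late level of the members was a median 0.188 of day 0. The 15 left out for abundance alone had early means that were a median 7.89 times their late means, against 5.02 times in the members.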

How the data were processed

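Poly(A) RNA of whole thalli was sequenced from directional single-end libraries, per the labels' protocols. The authors deposited raw read counts per transcript for the fungus and the alga, and counts of kept and mapped reads. HTSeq 0.5.4 (counting), HISAT2, edgeR, Trimmomatic 0.39 and FastQC 0.11.8 appear among the tools in the submitters' processing notes, which state no order. The strand setting, gene models and genome build were not given in the sources used. Reads shared by near-identical or overlapping transcripts may be split or lost.

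Here each table was filtered with filterByExpr by day and scaled by TMM. The fungal counts were fitted with edgeR 4.0.16 (R 4.3.3) by the robust quasi-likelihood F test over all 11 libraries. Benjamini-Hochberg adjustment was over all 12089 tested transcripts, with a threshold of 0.05. No fit was made to the algal counts. The biological coefficient of variation was 0.401. DESeq2 1.42.0 was an alternative. The code was tested on simulated data. Fungal counts totalled 8680745 to 17626099 per library. Libraries of 1 day are biological replicates per the series' design text and differed beyond sampling noise (smallest chi-square per degree of freedom 53.0).

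The set and its rule were chosen with earlier results of these data known. Transcripts named by ID are the most abundant member and the member with the widest gap among those of 50 CPM or more. Other members were singled out after their values were seen and carry no ID. Alternatives were other scalings, filters, rule limits, tools, a replicate block, fits to 2 days only, and leaving out each library.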

Additional observations from a re-analysis of the deposited data

How the results depend on the processing

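The number of members was 315 with a smaller factor (191 of the 198 kept) and 93 with a factor of 2 (89 of them among the 198). It was 156 to 220 under the other settings and 198 to 261 when 1 library was left out. Scaling by library totals gave 220, of which 171 were among the 198, and leaving out 1 library kept 181 to 198 of them. With 1 library fewer the gap criterion is looser, so that overlap and the larger counts are partly fixed by the rule. Requiring every early library above 0, chosen after seeing the data, gave 196. The algal count was 1 to 19 when 1 library was left out. Members called lower at day 7 against day 0 were 44 to 179 when 1 library was left out. At day 7 against day 2 they were 189 with DESeq2, where 8.98% of all were called lower, against 3.33% in the main edgeR fit. In that comparison they were 56 with the replicate block, 22 with only the libraries of those days and 11 to 125 with 1 library left out. At day 11 against day 2 they were 107 to 184 with 1 library left out. For these late-against-early counts, shares over all tested transcripts were computed only for the main edgeR fit and DESeq2. A general loss of calls therefore cannot be told apart from one in the members. At day 2 against day 0, members called higher were 3 with DESeq2, where 13.3% of all were called higher. They were 2 with only those days, where 6.40% were. With 1 library left out they were 0 to 2, and 2 only without day 2 replicate 2 or day 11 replicate 2. In those fits 7.10% and 8.37% of all were called higher. In this comparison, members called lower were 9 with DESeq2, where 8.6% of all were, and 25 with library totals, where 18.3% were. They were 0 with only those days, where 3.00% were, and 0 to 12 with 1 library left out, where 1.05% to 4.21% were. The 12 came without day 2 replicate 1, where 2.85% of all were called lower. The day 2 against day 0 change of transcript 545930 turned positive without day 0 replicate 1 (0.17) and without day 2 replicate 3 (0.19), and ranged from -1.77 to 0.19 over single libraries left out. Fewer libraries leave fewer degrees of freedom and a looser gap criterion. Otherwise the cause was not tested. The summed late level stayed at 19.3% to 21.9% of the early level. Same-numbered libraries correlated in their deviations from day means at -0.106 to 0.402, over 0.1 in 5 of 15 pairs. Differently numbered libraries correlated at -0.402 to 0.273. Libraries of a day are tied through its mean, so these values cannot decide whether same-numbered libraries were paired. With 2 libraries at day 7, calls that involve it rest on each of them.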
